A study of Mus musculus with 4 samples.

Results

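The 6 genes for endocytic C-type lectins described here were read in CD8α+ and CD8α- dendritic cells of the mouse spleen: Ly75, Cd207, Cd209a, Mgl2, Clec10a and Mrc1. They were chosen by name, as the probe sets whose only gene symbol in the platform annotation is one of these, which gave 1 probe set for each gene, 6 of the 45101 on the array. They are 6 of the 18193 genes that the array reads with a probe set of 1 symbol. Each group was CD8α+ or CD8α- splenic dendritic cells of C57BL/6 mice, with no treatment given in the labels, measured on 2 Affymetrix GeneChip mouse genome arrays per group and 4 in all. How the cells were isolated, the age of the mice and whether cells of several mice were pooled are not stated in the labels. They also do not say whether a group's arrays hold RNA of different animals. The p-values therefore reflect the spread between these samples alone, and that spread may be technical.

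C-type lectins of this kind are cell surface receptors that bind sugars or other ligands, enter the cell through coated pits and carry what they bind to endosomes, where antigen can be processed for presentation to T cells. Ly75 (DEC-205) and Mrc1 (CD206) belong to the mannose receptor family and carry many lectin-like domains in 1 chain. Cd207 (langerin) and Cd209a (a mouse relative of human DC-SIGN) have a single such domain and are known to bind mannose-type sugars, whereas Mgl2 (CD301b) and Clec10a (CD301a) are macrophage galactose-type lectins. DEC-205 is widely used to mark CD8α+ dendritic cells, langerin is best known from Langerhans cells of the epidermis, and CD206 and CD301 are known from macrophages and from dendritic cells of the skin.

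In these data Ly75 and Cd207 had more signal in CD8α+ cells, Cd209a and Clec10a had more signal in CD8α- cells, Mrc1 did not separate the groups, and Mgl2 was not above background on any array. None of the 6 passed an adjusted p of 0.05, and neither did any other probe set: limma, a linear model with a shared estimate of the spread, called 0 of 22519 tested probe sets (0.0%) after Benjamini-Hochberg adjustment, and 3500 at an unadjusted p under 0.05.

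The promoter windows of the 3 genes that were above background on all 4 arrays, Ly75, Cd207 and Cd209a, are shown so that the letters at the start of genes on opposite sides of the comparison can be read together. Each runs from 250 bases before to 20 bases after the annotated start, on the gene's strand, from RefSeq on build GRCm38.p6. Capitals mark matches to the motifs named below. RefSeq windows were matched for 5 of the 6 genes, all but Clec10a. The windows lie at chr2:60383254-60383523 for Ly75, chr6:83677838-83678107 for Cd207 and chr8:3748965-3749234 for Cd209a, all on the minus strand.
Ly75: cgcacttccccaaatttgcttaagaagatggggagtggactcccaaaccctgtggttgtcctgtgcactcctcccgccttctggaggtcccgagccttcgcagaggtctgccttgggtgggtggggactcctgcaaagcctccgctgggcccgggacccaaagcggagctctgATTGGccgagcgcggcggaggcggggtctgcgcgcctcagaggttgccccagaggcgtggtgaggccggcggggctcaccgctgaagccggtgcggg
Cd207: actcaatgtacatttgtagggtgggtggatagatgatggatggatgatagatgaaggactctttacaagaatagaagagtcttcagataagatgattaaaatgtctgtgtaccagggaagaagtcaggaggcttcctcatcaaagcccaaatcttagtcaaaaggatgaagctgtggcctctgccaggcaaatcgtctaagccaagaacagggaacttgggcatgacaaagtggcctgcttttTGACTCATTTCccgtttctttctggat
Cd209a: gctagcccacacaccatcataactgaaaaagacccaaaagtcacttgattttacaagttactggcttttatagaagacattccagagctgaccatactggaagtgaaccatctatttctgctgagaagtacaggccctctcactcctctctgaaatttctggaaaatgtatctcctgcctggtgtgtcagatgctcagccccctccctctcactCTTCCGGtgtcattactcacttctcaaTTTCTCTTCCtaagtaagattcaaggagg

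The 8 motifs searched were chosen after the sequences had been read, and each was looked for on both strands, and the share of 32851 RefSeq windows of the same length that hold each is given as background. The Cd207 window holds TGANTCA, the letters of AP-1 factors such as BATF, starting 7 bases before the annotated start (7.23% of windows). They are followed directly by TTTC, and this AP-1 and IRF composite, a form that BATF together with IRF4 or IRF8 is known to bind, is held by 0.11% of windows (36 of 32851). The Cd209a window holds the ETS-IRF composite element, a form that PU.1 with IRF4 or IRF8 is known to bind, on the opposite strand starting 9 bases before the start (2.47%), and CCGGAAG of the ETS family 36 bases before it (8.08%). It also holds TATAAA on the opposite strand 184 bases before the start (12.9%), left in lower case above. The Ly75 window holds CCAAT on the opposite strand 77 bases before the start (35.4%) and is richer in G and C, at 67.4% of its bases against 43.3% for Cd207 and 44.4% for Cd209a. In none of these 3 windows did an element like the interferon-stimulated response element (3.21%) or GGGCGG (34.1%) occur. The AP-1 and IRF composite contains the AP-1 letters, so those matches overlap. These matches describe letters and were not set against any binding data.

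The arrays differed in brightness and in some control readings. The mean deposited signal after trimming 2% at each end was 124.6 and 127.3 on the CD8α+ arrays, against 106.1 and 49.1 on the CD8α- arrays, so signals were quantile normalized. The ratio of 3′ to 5′ signal, a sign of RNA integrity, was 1.53 and 1.55 for the Gapdh controls on the CD8α+ arrays, against 2.02 and 10.75 on the CD8α- arrays. For the Actb controls it was 1.69 and 1.62 on the CD8α+ arrays, against 1.67 and 0.759 on the CD8α- arrays, so the controls did not show the same on CD8α- replicate 2. Across tested probe sets the CD8α+ pair correlated at r = 0.956 and the CD8α- pair at r = 0.835, as a description over probe sets that share these arrays. Each array's background was set at its brightest Bacillus control, 30.8 and 21.8 in normalized signal on the CD8α+ arrays against 28.3 and 34.5 on the CD8α- arrays. Cd8a itself read 2639.8 and 3102.1 in deposited signal on the CD8α+ arrays against 22 and 19 on the CD8α- arrays. In normalized signal the difference was at least 69.4-fold. In normalized signal the 11 measured markers of type 1 dendritic cells summed to 15869 and 15172 on the CD8α+ arrays against 5114.8 and 4534.9 on the CD8α- arrays. The 11 measured markers of type 2 dendritic cells summed to 4514.2 and 4755.1 against 11599 and 10591, although Itgam (CD11b) was not above background on either CD8α- array. The type 1 sum includes Cd8a, by which the groups are named. Of the 11 type 1 markers, 8 were higher in CD8α+ cells at an unadjusted limma p under 0.05, against 7.06% of tested genes. Id2 was not among them, Snx22 overlapped between the groups, and normalized Batf3 was lower in CD8α+ cells (114 and 139 against 145 and 158).

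Ly75, the endocytic receptor DEC-205, had deposited signals of 1973.7 and 1749.7 on the CD8α+ arrays, against 212.7 and 290 on the CD8α- arrays. After normalization these were 1490 and 1257 in CD8α+ cells and 198 and 617 in CD8α- cells. Both CD8α+ arrays were above both CD8α- arrays on either scale, and every array was above background, so the gene was measured in both populations. The probe set stood at the 97.8th and 97.4th percentile of its array's signals in CD8α+ cells, against the 86.5th and 94.6th in CD8α- cells. On the log2 scale the level was 10.42 ± 0.17 in CD8α+ cells and 8.45 ± 1.16 in CD8α- cells (SD, n = 2 each). The difference, CD8α+ minus CD8α-, was 1.97 ± 0.63 (SE, 3.92-fold, limma adjusted p = 0.277), with a 95% interval of 0.29 to 3.65. Nearly all of the spread of the normalized signals lay in the CD8α- pair, whose arrays differed by 1.64 log2 units, against 0.24 for the CD8α+ pair. The deposited CD8α- signals, 212.7 and 290, lay closer together. With CD8α- replicate 2 left out the difference was 2.79, and with CD8α- replicate 1 left out 1.15, so the array left to stand for CD8α- cells sets its size.

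Cd207, the mannose-binding receptor langerin, had deposited signals of 857.6 and 991 on the CD8α+ arrays, against 80.6 and 97.3 on the CD8α- arrays. Deposited signals were 8.81 to 12.3 times higher in CD8α+ cells over the 4 pairs of arrays. Normalized signals were 617 and 686 in CD8α+ cells, against 68.9 and 203 in CD8α- cells, and over the same pairs the ratio ran from 3.04 to 9.96. The groups did not overlap, and the CD8α- signals were above background on both arrays. The log2 level was 9.35 ± 0.11 in CD8α+ cells and 6.89 ± 1.10 in CD8α- cells (SD, n = 2 each). The fitted difference was 2.46 ± 0.61 (SE, 5.50-fold, limma adjusted p = 0.212), with a 95% interval of 0.85 to 4.07. As with Ly75, the CD8α- pair was wide after normalization, at 1.56 log2 units, and the CD8α+ pair narrow, at 0.15. The deposited CD8α- signals, 80.6 and 97.3, lay closer together. Without CD8α- replicate 1 the difference was 1.68 and without CD8α- replicate 2 it was 3.24.

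Cd209a, the mouse DC-SIGN relative, showed the opposite direction. Its deposited signals were 38.1 and 32.9 on the CD8α+ arrays, against 202.2 and 113.8 on the CD8α- arrays. Normalized signals were 34.7 and 33.8 in CD8α+ cells, against 188 and 240 in CD8α- cells. The CD8α+ signals were close to background, at 34.7 over 30.8 and 33.8 over 21.8, and the groups did not overlap. After normalization both pairs were tight: the log2 level was 5.10 ± 0.03 in CD8α+ cells and 7.73 ± 0.25 in CD8α- cells (SD, n = 2 each). The difference was -2.63 ± 0.33 (SE, 6.21-fold lower in CD8α+ cells, limma adjusted p = 0.116), with a 95% interval of -3.50 to -1.77. On the deposited scale Cd209a was not tighter than Ly75 and Cd207: the SE of its difference was 0.55, against 0.50 and 0.49. The values that follow are again from normalized signals, percentiles aside. Leaving out any 1 of the arrays kept the difference between -2.81 and -2.46. Cd209a was among the probe sets that shared the lowest adjusted p in the whole table, 0.116. The probe set stood at the 59.6th and 58.9th percentile in CD8α+ cells against the 86.0th and 88.3rd in CD8α- cells.

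**Figure D1:**
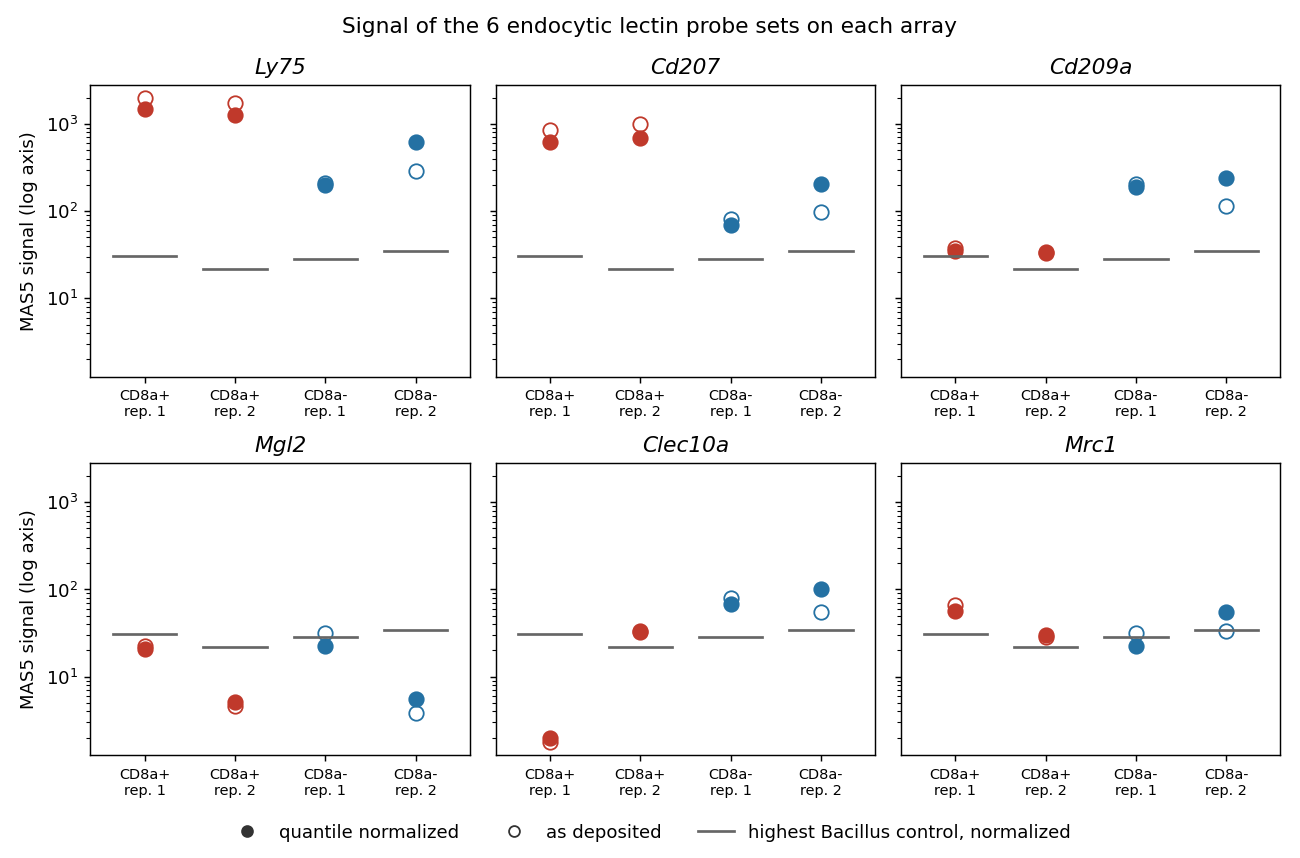
MAS5 signal on a log axis for the 6 lectin probe sets on each of the 4 arrays. Filled points are quantile normalized, open points are as deposited, and grey bars are the highest Bacillus control of each array after normalization. Ly75 and Cd207 are higher on both CD8α+ arrays than on both CD8α- arrays, with CD8α- replicate 2 above replicate 1, Cd209a is lower on both CD8α+ arrays, and the filled points of Mgl2 lie below the grey bars on all 4.

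Clec10a, the galactose-type lectin CD301a, was dimmer. Its deposited signals were 1.8 and 32.1 on the CD8α+ arrays, against 79.1 and 54.5 on the CD8α- arrays, and its normalized signals were 1.98 and 33.1 against 67.3 and 102. The CD8α- arrays were both above background and both above the CD8α+ arrays, of which only replicate 2 exceeded its background. No fold is given, because 1 of the 2 CD8α+ arrays gave only a bound and the other a level. The fitted log2 difference was -2.45 ± 0.83 (SE, limma adjusted p = 0.291), and it depends on the signal floor of 6.99 to which CD8α+ replicate 1 was raised. The probe set reached the mean signal needed for testing through its CD8α- arrays. Leaving out CD8α+ replicate 1 gave -1.33, and leaving out CD8α+ replicate 2 gave -3.57. With the floor at a signal of 1 it was -3.36, and with the floor at the median signal -1.54.

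Mgl2, the neighbouring galactose-type lectin CD301b, had deposited signals of 22.2 and 4.6 on the CD8α+ arrays, against 32 and 3.8 on the CD8α- arrays. No array exceeded its background, the groups overlapped, and the mean signal was below the limit for testing, so no fold and no p are given. Absence of the transcript cannot be read from this, since the arrays here limit what is measurable to signals above background. Clec10a and Mgl2 lie next to each other on chromosome 11 in the RefSeq annotation. Probe sequences were not used here, so cross-hybridization between these related genes was not tested, and the same holds for the Cd209 genes.

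Mrc1, the macrophage mannose receptor CD206, had deposited signals of 66.4 and 28.6 on the CD8α+ arrays, against 32 and 33.8 on the CD8α- arrays. Normalized signals were 56.6 and 30.1 in CD8α+ cells, against 22.4 and 55.6 in CD8α- cells. The groups overlapped, and each group had 1 brighter and 1 dimmer array. The CD8α+ arrays both exceeded background, while of the CD8α- arrays only replicate 2 did. The log2 difference was 0.23 ± 0.61 (SE, limma adjusted p = 0.869). Its 95% interval, -1.41 to 1.86, leaves room for a difference of more than 2-fold in either direction. With arrays scaled to a common trimmed mean the difference was -0.40, so no direction can be given.

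Read against the whole array, non-overlap of the groups was common, at 52.3% of the 22519 tested probe sets: 26.1% were higher on both CD8α+ arrays than on both CD8α- arrays, as Ly75 and Cd207 were, and 26.2% were lower, as Cd209a and Clec10a were. At an unadjusted limma p under 0.05 there were 15.5% of probe sets, 7.75% higher and 7.79% lower in CD8α+ cells. Ly75, Cd207, Cd209a and Clec10a were among them, Mrc1 was not, and Mgl2 was not tested. In size the differences stood further out. Only 1.53% of tested probe sets had a larger absolute difference than Cd209a, 2.11% than Cd207 and 5.11% than Ly75, against 76.9% for Mrc1. Clec10a is given no such rank, because its difference depends on the floor. The split of unadjusted calls depended on how the arrays were matched, with 1746 higher and 1754 lower here, 2310 and 454 as deposited, 1304 and 3745 at a common trimmed mean, and 6018 and 855 with arrays centred on their medians. On the deposited scale the median tested probe set was 0.63 log2 units higher in CD8α+ cells. Relative to that shift, the deposited-scale differences were 2.27 for Ly75, 2.75 for Cd207 and -2.73 for Cd209a.

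**Figure D2:**
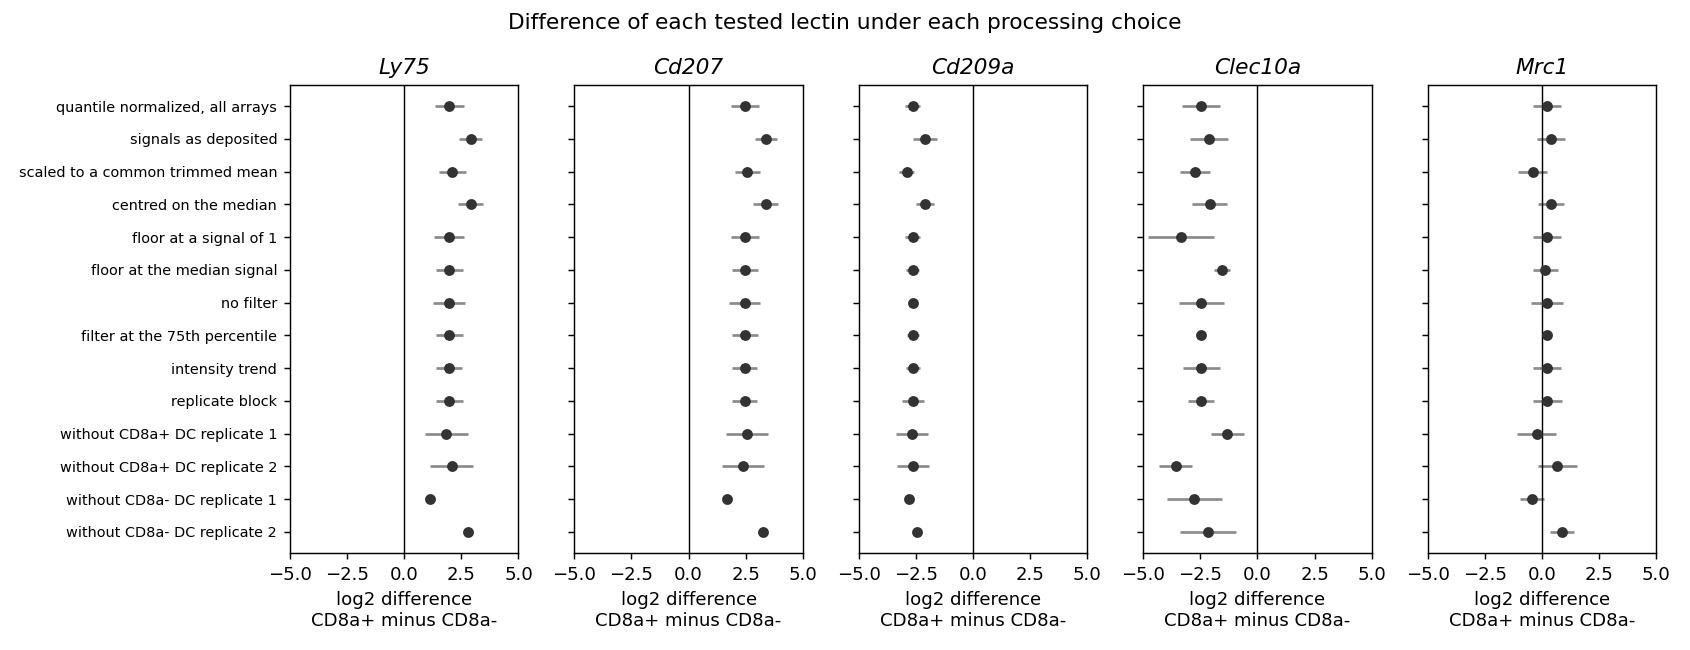
Log2 difference, CD8α+ minus CD8α-, of the 5 tested lectins under each processing choice. Bars are the SE of each fit and are missing where the probe set was not tested at that setting. Ly75 and Cd207 stay right of 0 and Cd209a and Clec10a left of 0 at each setting drawn, and Mrc1 lies on both sides.

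The relatives of these genes were mostly dim. In the mannose receptor family, the collagen-binding receptor Mrc2 had deposited signals of 2.6 and 1.1 on the CD8α+ arrays against 54.9 and 24.9 on the CD8α- arrays, at least 1.52-fold brighter in CD8α- cells but below the limit for testing, and the phospholipase A2 receptor Pla2r1 was not above background on any array. Of the 8 other genes listed with Cd209a, 2 were tested, and neither had an unadjusted p under 0.05. Cd209d gave a log2 difference of -0.90 ± 0.59 (SE) and Cd209b one of -0.16 ± 0.58, against -2.63 for Cd209a. The other 6, Cd209c, Cd209e, Cd209f, Cd209g, Clec4g and Fcer2a, were not above background on any array. The same was true of the asialoglycoprotein receptor genes Asgr1 and Asgr2 and of Clec4f, the Kupffer cell lectin beside Cd207.

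Of the genes that flank Ly75, Cd207 and Cd209a, 1 was above background. Cd302, a C-type lectin gene next to Ly75 on chromosome 2, had deposited signals of 500.3 and 488.4 on the CD8α+ arrays and 467.4 and 339.8 on the CD8α- arrays. Its normalized signals were 365 and 338 against 441 and 716, lower on both CD8α+ arrays. The log2 difference was -0.68 ± 0.38 (SE, limma adjusted p = 0.446), whereas that of Ly75 was 1.97. As deposited, Cd302 was higher on both CD8α+ arrays, so its direction depends on the scaling. The protein-coding neighbours of Cd207 (Clec4f and Vax2) and of Cd209a (Clec4g and Cd209e) were not above background on any array.

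Of other lectins of myeloid cells, most tested genes were lower in CD8α+ cells at an unadjusted p. Of 19 genes of that list with a probe set, 15 were tested, and at an unadjusted p under 0.05 there were 1 higher, 9 lower and 5 neither, against 7.06% higher and 8.74% lower among 10448 tested genes. None passed an adjusted p of 0.05. Their median log2 difference was -1.26, against -0.02 over all tested genes. The mycobacterial glycolipid receptor Clec4e (-2.65 ± 0.38, SE, 6.30-fold lower) had the largest difference among those above background on all arrays, with Clec4a3 next (-2.16 ± 0.62, 4.48-fold lower). Clec4b1 was not above background on either CD8α+ array and was at least 2.42-fold lower there. Clec1a was the 1 gene that was higher (1.77 ± 0.47), with deposited signals of 121.6 and 101.6 on the CD8α+ arrays against 26 and 24.9 on the CD8α- arrays, 1 of which was above background after normalization. By mean signal the list was led by the galectin Lgals3 (0.29 ± 0.37) and by Clec4d (-1.57 ± 0.36), a partner of Clec4e. Without CD8α+ replicate 1 the counts were 0 higher and 3 lower, without CD8α+ replicate 2 they were 0 and 2, and on the deposited scale 1 and 2.

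**Figure D3:**
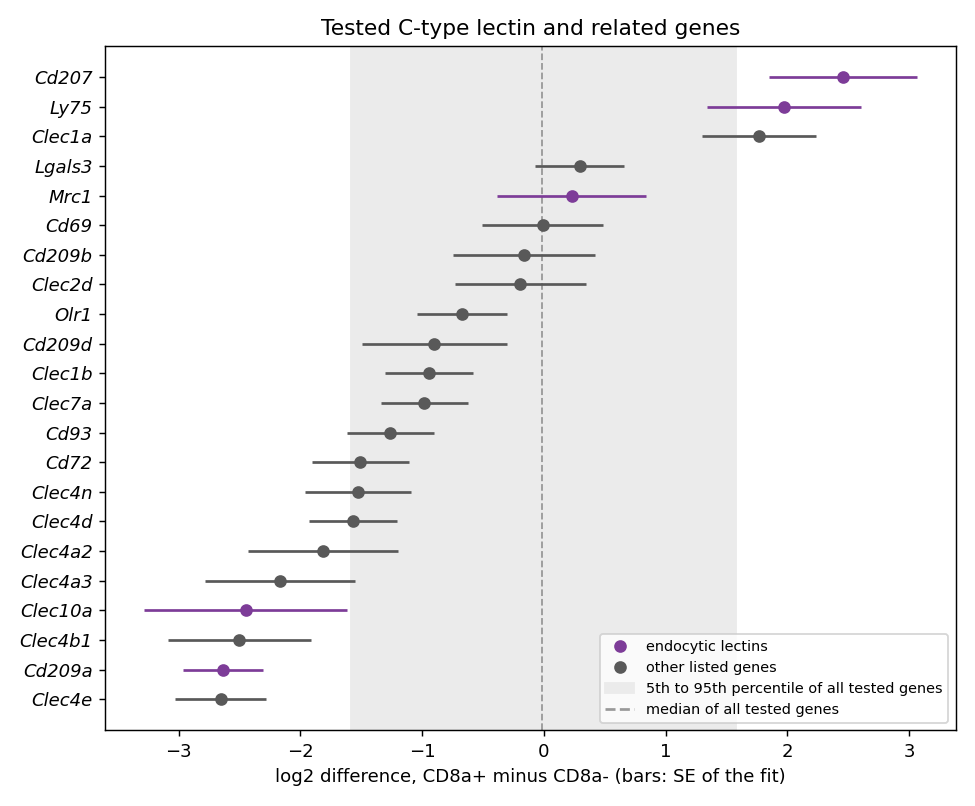
Log2 difference, CD8α+ minus CD8α-, of each tested C-type lectin or related gene, with the SE of the fit. Purple marks the endocytic lectins, the grey band spans the 5th to the 95th percentile of all 10448 tested genes (-1.59 to 1.58) and the dashed line is their median. Cd207, Ly75 and Clec1a lie above the band, and Cd209a and Clec10a lie below it with Clec4e, Clec4b1, Clec4a3 and Clec4a2, where the places of Clec10a and Clec4b1 depend on the signal floor.

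The machinery that takes such receptors into the cell was read by a list of clathrin-dependent endocytosis genes. Of 31 tested genes of clathrin-dependent endocytosis, 0 were higher and 2 lower at an unadjusted limma p under 0.05, or 6.45%, against 15.8% of all tested genes. None passed after adjustment, and the median difference was -0.19. The 2 were the membrane-bending protein Bin1 (-0.98 ± 0.34, SE) and the scaffold Itsn1 (-0.93 ± 0.34). Larger fitted differences that missed that p were those of the early endosome GTPase Rab5a (3.12 ± 1.89), Itsn2 (1.46 ± 0.84) and the dynamin Dnm2 (1.25 ± 0.55). Rab5a had normalized signals of 425 and 417 on the CD8α+ arrays against 334 and 2.61 on the CD8α- arrays, so its value rests on CD8α- replicate 2. Much of the Itsn2 difference came from that array too, at 992 and 836 against 744 and 146. Dnm2 was not above background on CD8α- replicate 2. The brightest genes of the list were the uncoating chaperone Hspa8 (-0.44 ± 0.35) and the clathrin light chain Clta (-0.39 ± 0.36). With a replicate block the calls were 3 higher and 0 lower, and with arrays centred on their medians 9 and 0, where the median moved to 0.76 with that of all genes at 0.67. No direction is therefore given for this list.

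In normalized signal, summed markers of several other cells were, like Cd209a and Clec10a, lower in CD8α+ cells. For some of these sums the direction depended on the scaling, whereas Cd209a and Clec10a were lower on both scales. As deposited, the macrophage, monocyte, neutrophil and plasmacytoid sums on CD8α- replicate 2 lay below those on both CD8α+ arrays. The deposited natural killer sum on that array lay between those on the CD8α+ arrays. In normalized signal the 16 measured markers of splenic macrophages summed to 1871.1 and 1881.1 on the CD8α+ arrays against 2799.9 and 4177.6 on the CD8α- arrays, and the 8 of monocytes to 3204.6 and 3243.7 against 5251.7 and 6738. At an unadjusted p under 0.05, 4 of 9 tested macrophage markers were lower and 1 higher in CD8α+ cells, and 2 of 7 tested monocyte markers were lower, against 8.74% lower and 7.06% higher among all tested genes. The 1 higher macrophage marker was Vcam1, at 324 and 384 on the CD8α+ arrays against 38.8 and 103 on the CD8α- arrays. The macrophage antigen F4/80, Adgre1, was at 57.0 and 70.8 on the CD8α+ arrays against 343 and 366 on the CD8α- arrays. Siglec1 (CD169) was above background on both CD8α- arrays (38.1 and 42.8) and on neither CD8α+ array. C1qa and C1qb were above background on CD8α- replicate 2 alone, and C1qc, Marco and Vsig4 on no array. The 8 natural killer cell markers summed to 457.9 and 589.2 against 2522 and 1474.5, the 7 of B cells to 1062.1 and 1137.7 against 2127.6 and 2792.1, and the 8 of plasmacytoid dendritic cells to 1058.4 and 1167.4 against 1576 and 2317.5. The 6 of neutrophils summed to 6936.1 and 7573.1 against 14468 and 11767, the 4 of erythroid cells to 123.6 and 91.3 against 98.7 and 131.5, and the 6 of T cells to 491.7 and 672.7 against 471.4 and 500.2. Endothelial markers, of which 4 of 9 were not above background on any array, summed to 169.5 on each CD8α+ array against 140.4 and 164.8. Single genes made up much of several sums. On CD8α- replicate 1 most of the natural killer sum was Gzma, at 1555, against 274 on CD8α- replicate 2. Most of the monocyte sum was Lyz2 (2118 and 2165 against 3292 and 4455), and most of the neutrophil sum was S100a8 and S100a9. Most of the B cell sum was Ighm (826 and 902 against 1971 and 2549). Ms4a1 of that list was higher in CD8α+ cells (125 and 132 against 45.6 and 48.6). Most of the plasmacytoid sum was Tcf4 (650 and 762 against 1198 and 1808), while Ccr9 was higher in CD8α+ cells (104 and 95.8 against 66.1 and 4.04). The part of such cells in the differences of Cd209a and Clec10a was not tested. In RNA of whole populations, fewer cells of a type and less RNA per cell cannot be told apart.

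The genes whose pattern over the 4 arrays was most like each lectin were found by the Euclidean distance between log2 signals centred on their own mean, among 18596 tested probe sets with 1 symbol. For Ly75 they were Nsd2 (distance 0.08), Stk39 (0.09) and Nme4 (0.13), each above background on both CD8α+ arrays and on neither CD8α- array. For Cd207 they were Hagh (0.08), Vcam1 (0.13) and Tra2a (0.24). Hagh and Tra2a, like Nme4 for Ly75, were raised to the floor on CD8α- replicate 1. Vcam1, an adhesion molecule also listed among the macrophage markers above, was above background on all arrays. Its deposited signals were 444.9 and 555.3 in CD8α+ cells against 51.7 and 54.6 in CD8α- cells. For Cd209a the nearest were Tmem176b (0.07), Krtap6-5 (0.09) and Tespa1 (0.10). Tmem176b had deposited signals of 297.7 and 320.9 on the CD8α+ arrays against 1284.7 and 783.5 on the CD8α- arrays, and the other two were at the floor in CD8α+ cells. For Clec10a the nearest were Sla2 (0.23), a probe set of the monocyte chemokine receptor Ccr2 (0.25) and Kif5b (0.27), all with CD8α+ replicate 1 at the floor, and for Mrc1 they were Ptprj (0.07), Zfp944 (0.15) and Klhl7 (0.17). With 4 points per gene, a small distance describes these arrays and no more.

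**Figure D4:**
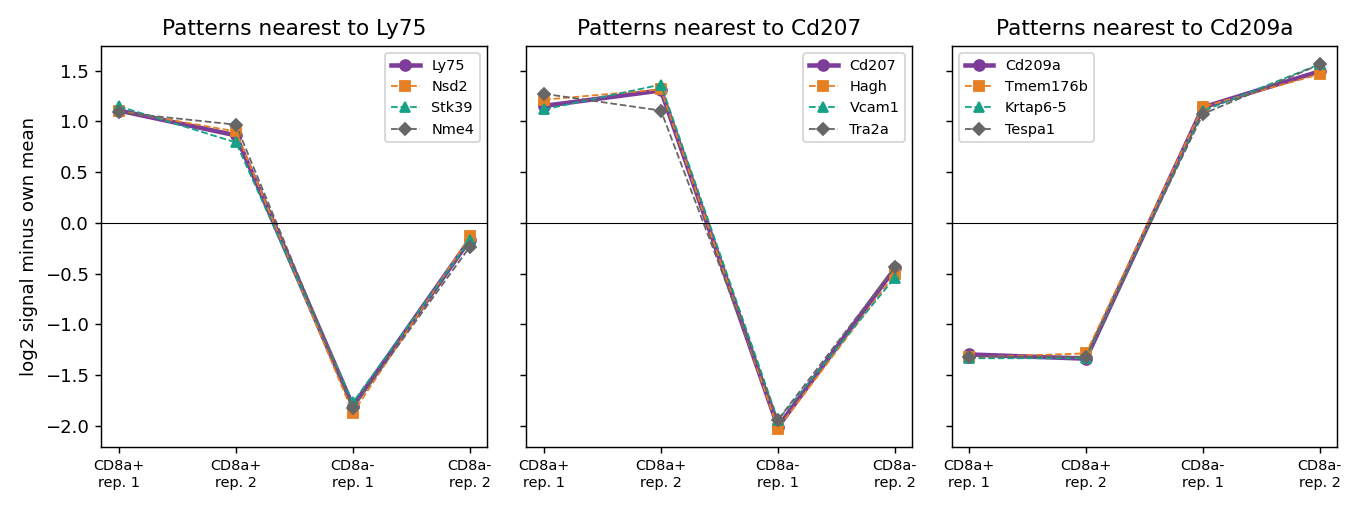
Log2 normalized signal minus its own mean over the 4 arrays, for Ly75, Cd207 and Cd209a (solid lines) and the 3 genes with the smallest distance to each (dashed lines). In the Ly75 and Cd207 panels CD8α- replicate 1 is the low point and CD8α- replicate 2 lies between it and the CD8α+ arrays, while in the Cd209a panel the CD8α+ arrays lie together and below both CD8α- arrays.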

How the data were processed

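RNA of 2 CD8α+ and 2 CD8α- arrays was compared, grouped by the titles in the labels. The authors deposited intensity values, 1 MAS5 signal per probe set on a linear scale, MAS5 being named in the submitters' processing notes. No source used here gives the scaling target. The series' design text names RNeasy and biotin-labelled cDNA, the labels' protocols Trizol and biotinylated cRNA, and which was used is not settled.

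Signals of 45101 probe sets were quantile normalized as log2 values, given a floor of 6.99 (the 25th percentile, averaged over arrays) and put on the log2 scale. The 64 controls were left out, and 22519 probe sets with a mean signal of at least 22.97, the median, were tested (limma 3.58.1, R 4.3.3, two-sided, 2 residual and 2.48 prior degrees of freedom, Benjamini-Hochberg adjustment over all of them). The script was tested on simulated data. An exact permutation test of 2 against 2 arrays cannot give a two-sided p below 0.333 and was not used. A probe set counted as above background where it exceeded the highest of 27 Bacillus controls on its array. For "at least" folds the dimmer group was set, on each array, to its background or its own signal, whichever was higher. Precision is limited by the number of arrays.

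Of 45037 probe sets, 34945 had 1 symbol, 932 several and 9160 none, and only those with 1 were named. A gene of a list was represented by its brightest probe set, with _x_at probe sets used only where there was no other. Named genes are all 6 lectins and the 3 nearest patterns per lectin. Per lectin or endocytosis list, the 2 largest differences in each direction among genes with an unadjusted p under 0.05 and the 2 brightest genes are named. For the cell type markers this rule was followed only in part, and those named were picked with their values known. Other genes named (relatives, neighbours, Clec4a3, Rab5a, Itsn2, Dnm2, Ccr9 and dim macrophage genes) were chosen after their values were seen. The lectins and lists were chosen with earlier results of these data known. Alternatives were other scalings, floors and filters, an intensity trend, a replicate block and leaving out each array.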

Additional observations from a re-analysis of the deposited data

How the results depend on the processing

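Ly75 and Cd207 were higher, and Cd209a and Clec10a lower, in CD8α+ cells under each of the 13 alternatives run. An adjusted p under 0.05 was reached for Cd207 with arrays centred on their medians (3.38, limma adjusted p = 0.0438), and for Cd207 and Cd209a without CD8α- replicate 1 (0.0476 and 0.0432). Leaving out 1 array at a time gave 1.15 to 2.79 for Ly75, 1.68 to 3.24 for Cd207, -2.81 to -2.46 for Cd209a, -3.57 to -1.33 for Clec10a and -0.43 to 0.88 for Mrc1. Such fits take the spread of the lone array from the other group. Mrc1 also turned to -0.40 at a common trimmed mean and to -0.23 without CD8α+ replicate 1. An unadjusted p under 0.05 was lost for Ly75 with no filter and without either CD8α+ array, and for Cd207 without CD8α+ replicate 2. Clec10a lost it with no filter, with the floor at a signal of 1 and without CD8α+ replicate 1 or either CD8α- array. Mgl2, not tested, lay between -0.90 and 0.78 with 1 array left out.

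The 0 probe sets with an adjusted p under 0.05 became 406 with median centring, 37 with the filter at the 75th percentile and 60 with an intensity trend, and ran from 0 to 2887 (without CD8α- replicate 1) with 1 array left out. The 3500 at unadjusted p became 6873 with median centring, 6555 with no filter and 2196 with the filter at the 75th percentile, where fewer were tested, and 1121 to 9727 with 1 array left out. The array numbers pair the samples only by name. Deviations of same-numbered arrays correlated at r = 0.03 over tested probe sets. A replicate block called 14 probe sets, with adjusted p = 0.183 for Ly75, 0.101 for Cd207, 0.0760 for Cd209a, 0.112 for Clec10a and 0.901 for Mrc1.

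List counts at unadjusted p, tried under alternatives chosen after seeing the data, changed as follows. Mannose receptor family genes numbered 1, 2 at a common trimmed mean, and 0 to 1 with 1 array left out. With no filter the 1 call was lower instead of higher in CD8α+ cells. The Cd209 list numbered 1, 2 with no filter, and 1 to 2. The asialoglycoprotein receptor and langerin list numbered 2, and 1 with the floor at a signal of 1, with the filter at the 75th percentile and with any array left out. The other lectins numbered 10, 3 as deposited, 5 with median centring, and 2 to 11. The endocytosis list numbered 2, 0 as deposited, 9 with median centring, and 0 to 16. The causes were not tested. Each gene was read by 1 probe set, so no other probe set could be tried, and signals near background limit what can be said of Clec10a, Mgl2 and Mrc1.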
